A study of Homo sapiens with 6 samples.

Results

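The 47 genes described here are the G1/S and DNA replication genes measured in ES2 cells, a human ovarian cancer line that the labels call high-grade serous carcinoma. They were chosen by name and matched on the gene name in the deposited count table. All 47 were found once among its 58735 genes, and all 47 passed the low-count filter that left 15768 genes for testing. Cells received either a control siRNA or siRNA against UAP1, which encodes an enzyme that makes UDP-N-acetylglucosamine, the sugar donor for several kinds of glycosylation. The labels give the genotypes as wild type and UAP1 knockdown. Each group had 3 libraries, numbered 1 to 3 in the sample titles. Both groups were transfected with a lipid reagent, had the medium replaced after 6 hours and gave RNA after 48 hours. The labels list 2 UAP1 siRNAs and do not say whether they were mixed or which library received which, and the knockdown was transient in a single cell line. Separate cultures are not mentioned for libraries of 1 group, so the p-values below refer to the spread among these 6 libraries, which could be technical.

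Cells commit to division in late G1, when cyclin D and cyclin E kinases inactivate the retinoblastoma proteins and release E2F factors. E2F factors then switch on the genes that load the MCM helicase at replication origins, fire those origins, copy the DNA and supply deoxynucleotides. Because these genes peak together around the G1/S boundary, their summed RNA in a bulk culture is often read as a measure of how many cells are entering or passing through S phase.

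Library totals ran from 21267240 to 25972582 counts, and the 47 genes together took 0.362% to 0.471% of them. UAP1 stood at 345, 357 and 444 CPM (counts scaled to library size, below) in control libraries 1, 2 and 3, and at 21.8, 23.3 and 25.2 CPM in siUAP1 libraries 1, 2 and 3. The log2 difference was -4.03 (SE 0.136, adjusted p = 6.12e-06, edgeR quasi-likelihood test with Benjamini-Hochberg adjustment), so the libraries carried the knockdown that their labels name. Of 13 markers for serous carcinoma and Müllerian epithelium, 6 passed the low-count filter, among them KRT7, KRT8 and CLDN4. Levels are given here for only some of the 13. MUC16, SOX17 and FOLR1 had 0 counts in all 6 libraries, where 3 counts correspond to 0.116 to 0.141 CPM. PAX8 and WT1 reached at most 2.51 and 2.46 CPM. The keratin gene KRT7 stood at 271 to 613 CPM, and all 6 leukocyte markers were below 0.7 CPM. CPM are counts divided by the library's counts in the tested genes, scaled by the trimmed mean of M values (TMM) and brought to a common library size. The 3-count limit and the CPM given for exon overlaps and pseudogenes instead divide by the library's total counts, without TMM. Those for overlaps and pseudogenes are means over the 6 libraries.

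Levels were compared between genes as FPKM, the deposited value that divides counts by gene length and library total. For all 47 genes the deposited length equalled all annotated exons merged, which need not be the length of the transcripts present. The order of genes by FPKM depends on these lengths. The most abundant was SLBP, whose product binds the 3′ stem-loop of histone mRNA. It stood at 166, 184 and 218 FPKM in control libraries 1 to 3 and at 154, 187 and 196 FPKM in siUAP1 libraries 1 to 3. CCND1 (cyclin D1) followed with a mean of 178 FPKM over all 6 libraries, and PCNA, the sliding clamp of DNA polymerases, with 104 FPKM. The SLBP and CCND1 means lay closer together than the spread of SLBP within either group, and both lay above the PCNA mean.

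Subunits of the MCM2-7 helicase, which form 1 complex, did not have equal FPKM. MCM7 averaged 74.5 FPKM, MCM3 53.3, MCM4 35.6, MCM2 24.1, MCM6 22.2 and MCM5 14.0. Part of this order comes from the lengths used, 7338 bases for MCM5 and 4118 for MCM6. Without division by length MCM5 lay above MCM6, with control means of 105.7 and 96.8 CPM. The median of the 47 means was 12.9 FPKM. At the low end stood E2F2, an activating E2F, with 0.0599, 0.924 and 0.306 FPKM in control libraries 1 to 3 and 0.159, 0.689 and 0.370 FPKM in siUAP1 libraries 1 to 3. CCNE2 (cyclin E2) averaged 1.86 FPKM and GINS3, a helicase cofactor, 1.92 FPKM. E2F2 was the only one of the 47 with a mean below 1 FPKM, and its libraries numbered 1 were the lowest in both groups.

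E2F factors bind short GC-rich words in promoters, which is why the start regions of these genes are shown beside their levels. Promoters were taken from RefSeq on GRCh38.p14 as 250 bases before to 50 bases after a gene start, in the direction of the gene. An entry was present for 40 of the 47 genes, and only 1 start was kept for each. For some genes, among them MCM7, CCND3, PCNA and RRM2, that start lay inside the gene's deposited bounds. Other starts were not searched, so a gene without a word may hold one elsewhere. Each was searched on both strands for TTTCGCGC, TTTGGCGC, TTTCCCGC and TTTGCCGC, and overlapping matches were all counted. At least 1 word was present in 20 of the 40 promoters (50%) and in 894 of 27305 RefSeq promoters of the same length (3.27%). Lists of related genes, used for comparison below, lay between. Words were found in 4 of 26 promoters of further replication genes (15.4%) and 5 of 24 of further G1/S control genes (20.8%). They were found in 2 of 7 of further histone and chromatin assembly genes (28.6%) and 1 of 10 of further deoxynucleotide genes (10%). G2/M genes had 3 of 29 (10.3%), and only the S-phase checkpoint genes had none, with 0 of 9. By role, words were found in 2 of 2 promoters of E2F genes, 5 of 7 of origin licensing genes, 4 of 6 of polymerase genes, 2 of 7 of clamp and lagging-strand genes and 0 of 2 of cyclin genes. A match describes the letters in this window and is neither a measured binding site nor a cause of any level.

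The first 3 sequences belong to the genes with the smallest p for the replicate number, RRM2, PCNA and MCM6, and run from 250 bases before the start to the base before it. The other 4 come from genes described below and cover the last 100 bases before the start. Capitals mark the searched words, including their reverse complements, and adjoining capitals are overlapping words.
MCM6, chr2:135876444-135876693, minus strand: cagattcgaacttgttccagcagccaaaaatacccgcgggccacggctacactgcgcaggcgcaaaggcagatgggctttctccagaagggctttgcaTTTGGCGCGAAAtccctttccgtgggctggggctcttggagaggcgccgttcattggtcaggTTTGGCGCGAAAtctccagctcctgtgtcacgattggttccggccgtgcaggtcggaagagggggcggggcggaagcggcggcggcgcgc
PCNA, chr20:5119959-5120208, minus strand: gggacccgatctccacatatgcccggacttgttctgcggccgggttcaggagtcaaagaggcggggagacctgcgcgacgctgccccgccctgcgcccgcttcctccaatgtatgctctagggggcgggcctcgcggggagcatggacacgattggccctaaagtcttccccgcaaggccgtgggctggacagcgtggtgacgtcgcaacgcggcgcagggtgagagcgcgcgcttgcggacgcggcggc
RRM2, chr2:10122318-10122567, plus strand: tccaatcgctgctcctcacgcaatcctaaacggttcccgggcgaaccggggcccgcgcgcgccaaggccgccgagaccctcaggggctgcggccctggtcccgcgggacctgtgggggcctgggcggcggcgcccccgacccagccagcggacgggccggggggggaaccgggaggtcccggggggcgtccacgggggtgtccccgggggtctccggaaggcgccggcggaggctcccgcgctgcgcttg
E2F1, chr20:33686386-33686485, minus strand: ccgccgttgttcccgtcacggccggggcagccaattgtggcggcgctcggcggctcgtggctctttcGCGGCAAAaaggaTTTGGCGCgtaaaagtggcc
GINS2, chr16:85688955-85689054, minus strand: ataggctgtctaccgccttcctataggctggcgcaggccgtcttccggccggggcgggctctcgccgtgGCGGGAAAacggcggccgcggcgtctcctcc
RFC3, chr13:33818049-33818148, plus strand: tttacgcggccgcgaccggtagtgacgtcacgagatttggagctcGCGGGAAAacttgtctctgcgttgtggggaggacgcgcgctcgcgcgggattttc
TYMS, chr18:657553-657652, plus strand: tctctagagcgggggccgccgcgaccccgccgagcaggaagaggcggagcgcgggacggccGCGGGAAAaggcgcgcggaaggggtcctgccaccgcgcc

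MCM6 held 4 matches in 2 overlapping pairs, and E2F1 held a TTTGCCGC word in reverse and a TTTGGCGC word forward. GINS2, RFC3 and TYMS each held TTTCCCGC in reverse. RRM2 and PCNA held none of the 4 words in this window. Of the 27 matches in all, 22 began between 100 bases before and 50 bases after the start.

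**Figure D1:**
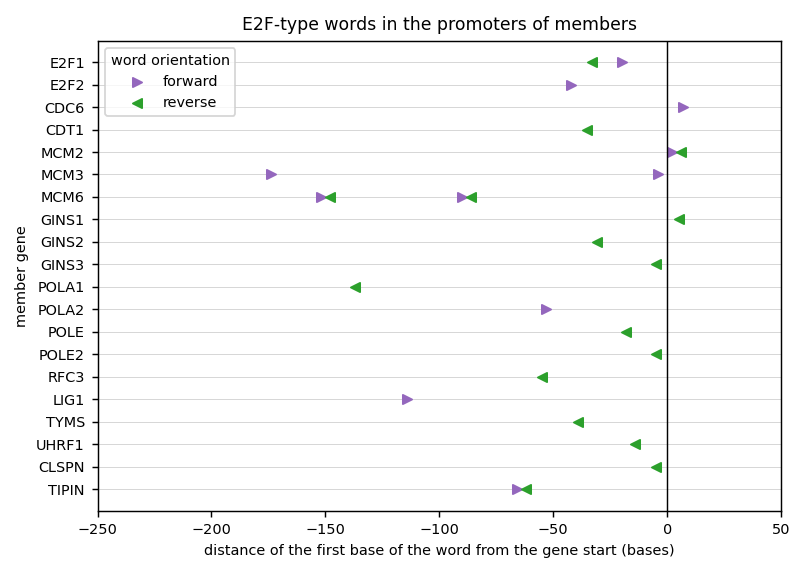
Position of each E2F-type word in the 20 promoters of the G1/S and replication genes that held one. The x axis is the distance in bases of the word's first base from the RefSeq gene start (0), arrows give the word's orientation, and 22 of the 27 matches lie from 100 bases before the start onward.

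The largest differences among the 6 libraries followed the replicate number and not the siRNA. The ribonucleotide reductase subunit RRM2, which makes deoxynucleotides, stood at 59.4, 100.5 and 96.6 CPM in control libraries 1 to 3 and at 53.3, 96.9 and 73.0 CPM in siUAP1 libraries 1 to 3. PCNA stood at 122, 171 and 176 CPM in control libraries 1 to 3 and at 113, 176 and 169 CPM in siUAP1 libraries 1 to 3. MCM6, a helicase subunit, stood at 73.2, 110.9 and 106.3 CPM in control libraries 1 to 3 and at 66.7, 101.7 and 94.8 CPM in siUAP1 libraries 1 to 3. For each of these genes the libraries numbered 1 were the lowest pair of the 6, and the siRNA groups overlapped.

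The replicate number was tested with the siRNA group in the same edgeR fit, over 3 numbers with 1 library of each group per number. Among the 47 genes 42 differed between numbers, beside 45.9% of all 15768 tested genes. The exceptions were CDC45, POLA1, POLA2, DSCC1 and UHRF1. In bulk RNA, a smaller share of S-phase cells and less of these RNAs per cell cannot be told apart. The library names carry a code that is the same for the control and the siUAP1 library of a number and differs between numbers (4_1, 12_31 and 12_13 for numbers 1, 2 and 3). The labels do not say what the code or the number stands for. Depth moved with it: the libraries numbered 1 had the lowest totals of their groups, 21267240 and 23727266 counts, against 24842621 to 25972582 in the other 4. Mitochondrial genes took 4.45% and 4.72% of counts in the libraries numbered 1, within the range of 4.23% to 6.02% over the other 4. The part of depth in these differences was not tested.

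**Figure D2:**
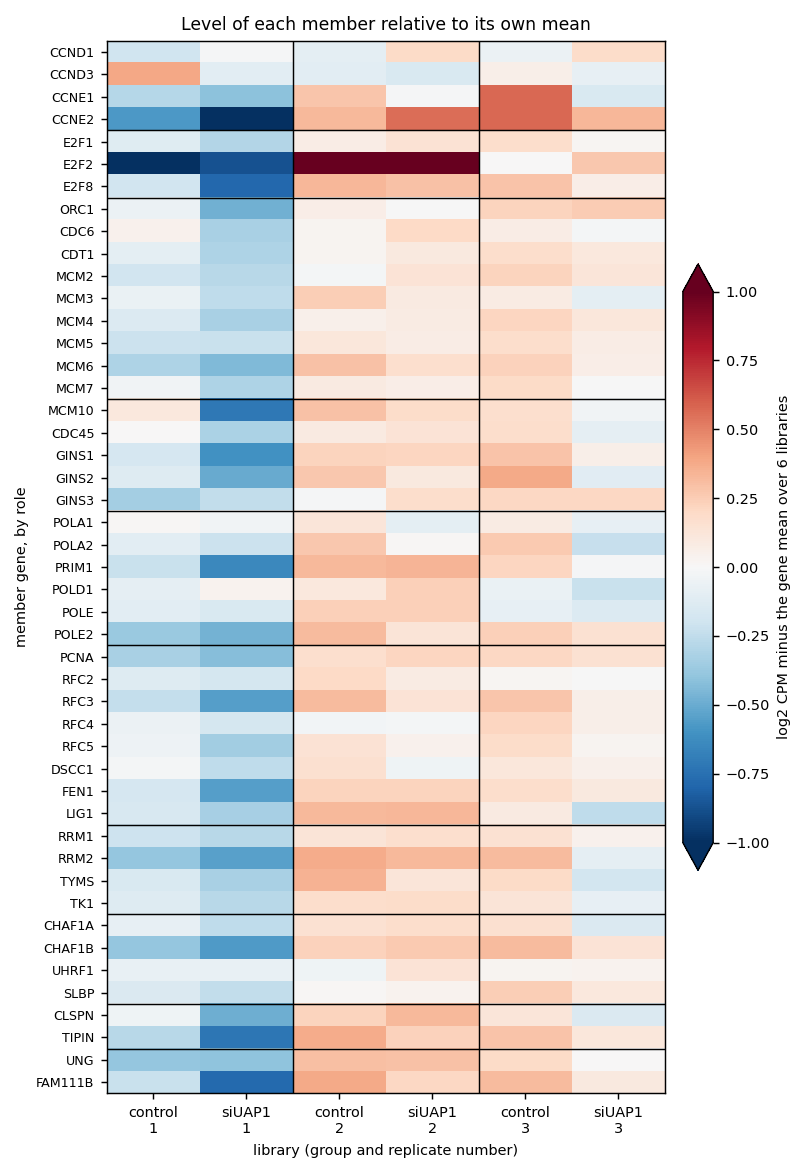
Log2 CPM of each of the 47 genes minus its own mean over the 6 libraries, with libraries in columns ordered by replicate number and genes in rows grouped by role. Both columns of replicate number 1 are mostly blue (median -0.15 for control and -0.32 for siUAP1), and the colour scale ends at 1 in each direction, which E2F2 and CCNE2 exceed.

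Relative to number 1, 38 genes were higher in number 2 and 1, CCND3 (cyclin D3), was lower, where 13.1% of all tested genes were higher and 13.1% lower. The median over the 47 was 1.30-fold. Relative to number 1, 34 were higher in number 3 and 0 were lower, where 18.5% of all tested genes were higher and 17.8% lower, and the median was 1.27-fold. Number 3 differed less from number 2: 8 of the 47 were lower in number 3, beside 11.6% of all tested genes, and 0 were higher, beside 12.0%. Those 8 were E2F2, MCM3, POLD1, POLE, LIG1, RRM2, TYMS and CLSPN. The median difference of number 3 from number 2 was -0.06 on the log2 scale. These comparisons of 2 numbers were chosen after the data had been seen.

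Both libraries numbered 1 lay below the other 4 for 32 of the 47 genes, beside 16.2% of all tested genes, and above them for 0, beside 15.1%. Of these 32 genes 27 had a promoter entry, and 12 of those held a searched word (44.4%), against 8 of 13 (61.5%) for the other genes. In a split of each gene's sum of squares on log2 CPM, the number took a median of 81.5% over the 47 genes and the siRNA 10.4%. Over all tested genes the same medians were 65.6% and 12.4%, so the number took the larger share there as well. With 3 numbers against 2 groups, a larger share for the number is built into this split even without any effect. CCND1, POLA1, POLA2 and CCND3 went the other way, with siRNA shares of 70.2%, 79.3%, 48.8% and 37.9%. Their number shares were 27.7%, 1.65%, 35.8% and 35.1%.

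**Figure D3:**
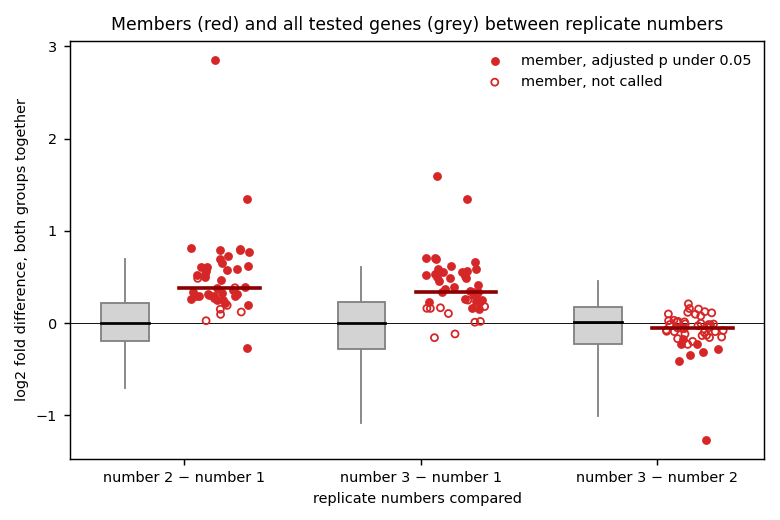
Log2 difference between replicate numbers for the 47 genes (red points, filled where the adjusted p is under 0.05, dark red line at their median) and for all 15768 tested genes (grey box from the 25th to the 75th percentile, line at the median, whiskers from the 5th to the 95th). Against number 1 the red points sit mostly above 0, with medians of 0.38 and 0.34, while the grey medians are near 0.

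By role, the difference was widest in the E2F genes and the fork and repair genes. E2F2 was 7.23-fold higher in number 2 than in number 1 (log2 2.85, SE 0.373) and 3.02-fold higher in number 3 (log2 1.59, SE 0.404), from low counts of 7 to 130 reads per library. The repressor E2F8 was 1.73-fold and 1.58-fold higher, and E2F1 1.25-fold and 1.24-fold higher. E2F2 was lower again in number 3 than in number 2, by 1.26 on the log2 scale (adjusted p = 0.00431), while E2F1 and E2F8 did not pass that test.

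Among the cyclins CCNE2 was 2.54-fold higher in both number 2 and number 3 than in number 1 (log2 1.35 and 1.34, SE 0.188 each). The exons of CCNE2 overlap those of INTS8 on the opposite strand over 37.0% of their length, and INTS8 was counted at 96.8 CPM against 8.22 CPM for CCNE2, so its value is uncertain without knowledge of how strand was counted. CCNE1 (cyclin E1) passed against number 1 for number 3 only, where it was 1.50-fold higher (adjusted p = 0.0267), with an adjusted p of 0.0825 for number 2.

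All 9 genes of origin recognition and licensing differed between numbers in the edgeR test, CDC6 only at the threshold (adjusted p = 0.04999). MCM6 led them at 1.52-fold and 1.44-fold in numbers 2 and 3 against number 1, and MCM7 stood at 1.19-fold and 1.20-fold. ORC1, the largest subunit of the origin recognition complex, was 1.42-fold higher in number 3. CDC6, which loads MCM onto origins, passed against number 1 for number 2 only (1.19-fold, adjusted p = 0.0302). Of the genes that activate the helicase, GINS1 (1.52-fold and 1.47-fold), GINS2 (1.42-fold and 1.37-fold) and MCM10 (1.43-fold and 1.28-fold) were higher in both numbers.

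Polymerase genes split into different patterns. POLE2, the accessory subunit of polymerase epsilon, was 1.57-fold and 1.54-fold higher in numbers 2 and 3 than in number 1, and the primase subunit PRIM1 1.70-fold and 1.45-fold. The catalytic subunits POLE and POLD1 were higher in number 2 than in number 1 (1.29-fold and 1.15-fold), and lower in number 3 than in number 2, by a log2 difference of -0.35 for POLE (SE 0.0616) and -0.32 for POLD1 (SE 0.0743). The ligase gene LIG1, which seals Okazaki fragments, showed a similar pattern, at 1.49-fold in number 2 against number 1 and -0.41 on the log2 scale in number 3 against number 2 (SE 0.0879). POLA1, the catalytic subunit of polymerase alpha, differed by at most 0.03 on the log2 scale between any 2 numbers, with an SE of about 0.08, and did not pass.

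Of the clamp, clamp-loader and flap-processing genes, PCNA (1.48-fold and 1.47-fold), RFC3 (1.54-fold and 1.48-fold) and the flap endonuclease FEN1 (1.50-fold and 1.41-fold) were higher in both numbers than in number 1. So was RFC5, at 1.23-fold and 1.24-fold. RFC4 was higher in number 3 only (1.19-fold, adjusted p = 0.00622), and DSCC1, a subunit of an alternative clamp loader, did not pass. All 4 deoxynucleotide genes were higher in both numbers, from RRM2 at 1.76-fold and 1.50-fold to TK1 (thymidine kinase) at 1.30-fold and 1.17-fold. CHAF1B, a subunit of the histone chaperone CAF-1, was 1.66-fold and 1.64-fold higher. TIPIN, which protects stalled forks, stood at 1.74-fold and 1.62-fold, the uracil glycosylase gene UNG at 1.61-fold and 1.41-fold and FAM111B, which encodes a protease, at 1.73-fold and 1.63-fold.

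The same direction was seen in the 35 genes of G2/M and mitosis used for comparison. In that list 33 differed between numbers, beside 45.9% of all tested genes. Both libraries numbered 1 lay below the other 4 for 28, beside 16.2%. The medians against number 1 were 1.24-fold for number 2 and 1.32-fold for number 3. Number 3 stood above number 2 in 12 of those 35 genes, beside 12.0% of all tested genes, and below it in 2, beside 11.6%. Among the 47 genes it was above in 0 and below in 8. Whether that difference between the lists exceeds chance was not tested.

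The design's comparison asks whether loss of UAP1 changed these genes. With the siRNA group as the only term, 0 of the 47 genes differed in edgeR's quasi-likelihood test, beside 0.108% of all tested genes. The smallest adjusted p was 0.627, for CCND1, which was also the only 1 with an unadjusted p under 0.05, and DESeq2 called 0 as well. The median log2 difference was -0.13, beside 0.00 over all tested genes.

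Libraries with the same number deviated together in both groups, so the comparison was also fitted with the number as a block, which compares siUAP1 with control within each pair. In that fit 12 of the 47 genes were lower in siUAP1, beside 7.14% of all tested genes, and 1 was higher, beside 9.07%. The other 34 did not pass. The median log2 difference was -0.15, with 42 genes below 0 and 5 (CCND1, E2F2, GINS3, POLD1 and UHRF1) above, and the 13 that passed changed by 10.8% to 22.1%.

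CCND1, the cyclin that starts the G1/S transition with CDK4 and CDK6, was the single gene that rose. It stood at 753, 807 and 829 CPM in control libraries 1 to 3 and at 857, 986 and 984 CPM in siUAP1 libraries 1 to 3. Every siUAP1 library lay above every control library, as it did for 6.74% of all tested genes. The log2 difference in the fit with the block was 0.24 (SE 0.0466, adjusted p = 0.000567). CCND3, the other D-type cyclin, fell by 0.23 (SE 0.0653, adjusted p = 0.0161). It stood at 95.3, 67.7 and 75.9 CPM in control and at 67.5, 65.5 and 68.7 CPM in siUAP1, so that the groups overlapped and control library 1 was the highest of the 6.

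Of the licensing genes only the helicase subunits MCM3 and MCM7 passed. MCM3 stood at 186, 231 and 207 CPM in control libraries 1 to 3 and at 164, 208 and 182 CPM in siUAP1 libraries 1 to 3, a log2 difference of -0.17 (SE 0.0459, adjusted p = 0.0103) that was nearly equal in the 3 pairs (-0.18, -0.15 and -0.18). MCM7 stood at 320.0, 348 and 375 CPM in control and at 264, 344 and 326 CPM in siUAP1 (log2 -0.17, SE 0.0503, adjusted p = 0.0245). In both genes siUAP1 was lower in every pair, although the groups overlapped. MCM6 had a like difference of -0.14 and an adjusted p of 0.054, and MCM2 had -0.01.

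Helicase activation held 3 of the 12. MCM10, which helps convert the loaded helicase to its active form, stood at 37.7, 42.8 and 39.4 CPM in control libraries 1 to 3 and at 21.2, 39.7 and 34.2 CPM in siUAP1 libraries 1 to 3. Its log2 difference of -0.36 (SE 0.0919, adjusted p = 0.00751) was the lowest of the 12, and pair 1 gave -0.83 where pairs 2 and 3 gave -0.11 and -0.20. The groups overlapped, and siUAP1 library 1 was the lowest of the 6.

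GINS1 and GINS2 encode subunits of the GINS complex, which holds the active helicase together. GINS2 stood at 21.6, 28.5 and 30.7 CPM in control and at 16.6, 25.3 and 21.7 CPM in siUAP1 (log2 -0.35, SE 0.0833, adjusted p = 0.00458). GINS1 stood at 52.5, 69.0 and 71.8 CPM in control and at 38.7, 68.7 and 61.4 CPM in siUAP1 (log2 -0.21, SE 0.0654, adjusted p = 0.026). The groups overlapped in both genes and the libraries numbered 1 were lowest. GINS1 was equal in pair 2 to within 0.01 on the log2 scale, and GINS3 had a log2 difference of 0.09 that did not pass. The fourth subunit gene, GINS4, which is not among the 47 genes, had a log2 difference of -0.14 (SE 0.0629, adjusted p = 0.154) and was below control in each pair.

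POLA2, the regulatory subunit of polymerase alpha, was the only polymerase gene to pass. It stood at 16.7, 21.7 and 21.6 CPM in control libraries 1 to 3 and at 15.5, 18.2 and 15.3 CPM in siUAP1 libraries 1 to 3 (log2 -0.29, SE 0.094, adjusted p = 0.0349), and control library 1 lay within the siUAP1 range. POLA1 was the 1 gene of the 47 whose siUAP1 libraries (39.3, 37.7 and 38.0 CPM) all lay below the control libraries (40.6, 43.9 and 42.6 CPM), beside 5.71% of all tested genes. Its log2 difference of -0.15 did not pass (SE 0.0649, adjusted p = 0.132).

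The clamp-loader subunits RFC3 and RFC5 passed. RFC3 stood at 41.9, 61.7 and 60.1 CPM in control and at 33.9, 54.7 and 51.6 CPM in siUAP1 (log2 -0.23, SE 0.0591, adjusted p = 0.00793). RFC5 stood at 43.6, 50.1 and 51.4 CPM in control and at 35.5, 46.5 and 46.1 CPM in siUAP1 (log2 -0.18, SE 0.0623, adjusted p = 0.044). Both were lower in every pair with overlapping groups, whereas PCNA, the clamp they load, had a log2 difference of -0.04 that did not pass.

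In deoxynucleotide supply TYMS and RRM2 passed. TYMS, the thymidylate synthase gene, stood at 71.7, 101.3 and 91.0 CPM in control libraries 1 to 3 and at 63.8, 86.8 and 70.0 CPM in siUAP1 libraries 1 to 3. The log2 difference was -0.26 (SE 0.0542, adjusted p = 0.00132), the smallest p of the 12, and siUAP1 was lower in each pair with overlapping groups. TYMS exons overlap ENOSF1 on the opposite strand over 39.1% of their length, and ENOSF1 was counted at 93.6 CPM, so part of the TYMS count may belong to ENOSF1. RRM2, whose counts are given above, fell by 0.20 (SE 0.0598, adjusted p = 0.0196), with -0.40 in pair 3 and -0.05 in pair 2. RRM1, its partner subunit, had -0.05 and did not pass.

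FAM111B stood at 12.5, 18.9 and 18.1 CPM in control and at 8.46, 16.8 and 15.6 CPM in siUAP1 (log2 -0.30, SE 0.102, adjusted p = 0.0478), lower in each pair with overlapping groups. No gene of the E2F, chromatin assembly or fork protection groups passed. TIPIN had -0.24 and CCNE1 -0.40, with standard errors of 0.102 and 0.163.

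**Figure D4:**
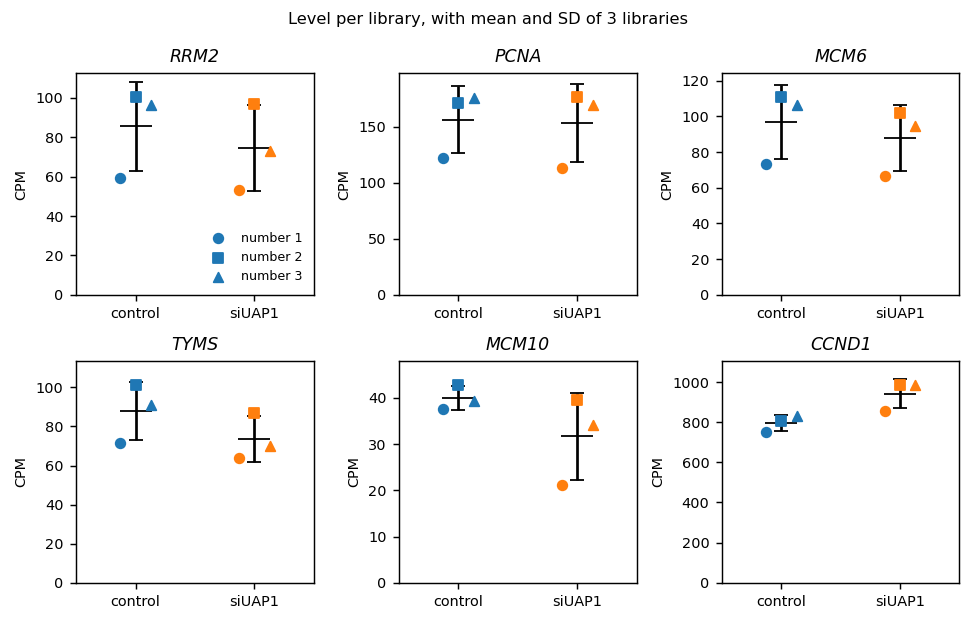
CPM per library of 6 of the genes (axes start at 0), with the mean and SD of the 3 libraries of each group and a marker shape for each replicate number. Number 1 (circles) is lowest within each group, the groups overlap for RRM2, PCNA, MCM6, TYMS and MCM10, and all 3 siUAP1 values of CCND1 lie above the control values.

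The pairs did not show the difference equally. On log2 CPM with a prior count of 2, the median over the 47 genes was -0.17 in pair 1, -0.01 in pair 2 and -0.17 in pair 3, and 42, 26 and 42 genes were below 0. In all 3 pairs 24 genes were lower in siUAP1, beside 23.6% of all tested genes, 3 were higher, beside 23.4%, and 20 were mixed. Over all tested genes the medians were within 0.01 of 0 in each pair. The number of calls depended on which pairs were fitted, for these genes and for all tested genes. Without pair 1, 7 of the 47 were lower, beside 6.09% of all tested genes, and 1 was higher, beside 7.80%. Without pair 2, 16 were lower, beside 5.56%, and 1 was higher, beside 7.03%. Without pair 3, 1 gene, MCM10, was lower, beside 2.81%, and 0 were higher, beside 4.61%. With DESeq2 in place of edgeR and the same block, MCM3, MCM7, GINS2 and TYMS were lower, beside 4.68%, and CCND1 was higher, beside 6.14%.

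All 13 genes that passed kept their sign without any 1 pair. Without pair 3, 11 of the 13 stayed within 1.5 times their value, among them CCND1 (0.24), MCM3 (-0.17) and RFC3 (-0.24), while RRM2 (-0.10) and POLA2 (-0.19) were smaller. Without pair 1 the values were smaller for MCM10 (-0.16), CCND3 (-0.09), MCM7 (-0.11), GINS1 (-0.11) and FAM111B (-0.19), and without pair 2 the value of GINS1 was -0.33. With pair 1 left out the median of the 47 was -0.10, with 42 genes below 0. Where siUAP1 library 1 alone was left out and no block was fitted, so that control library 1 had no partner, the median of the 47 moved from -0.13 to 0.02 and 24 genes changed sign.

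**Figure D5:**
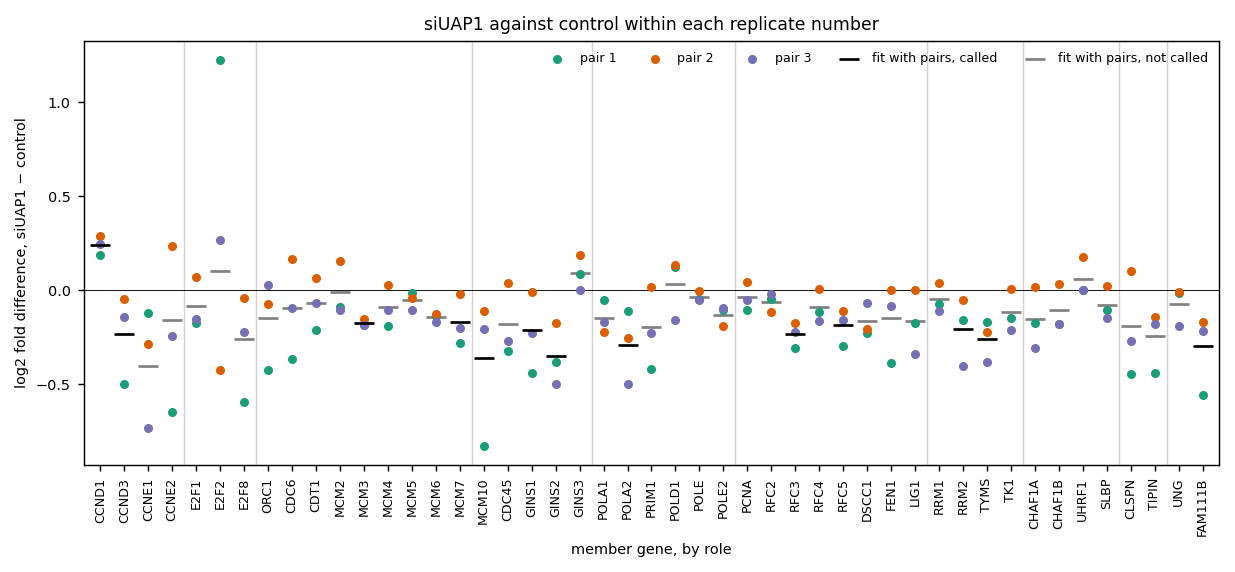
Log2 difference of siUAP1 from control for each of the 47 genes within replicate numbers 1, 2 and 3 (coloured points) and in the fit with pairs (bars, black where the adjusted p is under 0.05), in order of role. Points of pair 2 lie around 0 (median -0.01) while those of pairs 1 and 3 lie mostly below it (median -0.17 each), and CCND1 is above 0 in every pair.

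Other genes of the same pathways passed in both directions in the fit with the block. In that fit 9.07% of all tested genes were higher and 7.14% lower, and the counts below are to be read beside these shares. Of 35 further replication genes 2 rose, RFC1 (0.19), the large clamp-loader subunit, and POLD2 (0.16), and 2 fell, the RNase H2 subunit gene RNASEH2C (-0.26) and the fork protection gene TIMELESS (-0.16). Of 29 further genes of G1/S control 27 were tested, of which 3 rose and 4 fell. The 4 with the smallest p were TFDP2 (0.35), a dimer partner of E2F factors, CDKN2B (0.35), an inhibitor of CDK4 and CDK6, SKP2 (-0.28), a ubiquitin ligase subunit that targets CDK inhibitors, and CDK4 itself (-0.19). Of 12 further deoxynucleotide genes 2 fell, the pyrimidine synthesis genes CTPS1 (-0.27) and CAD (-0.28). Of 7 further histone and chromatin assembly genes NASP (-0.22) and RBBP7 (-0.14) fell, and 0 of 11 S-phase checkpoint genes passed. In the G2/M list 10 of 35 fell and 1 rose, with a median of -0.10.

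Some cell type markers passed in the same fit, in which 9.07% of all tested genes were higher and 7.14% lower. Of the 6 serous and epithelial markers tested 3 rose, KRT7 (0.58), KRT8 (0.78) and CLDN4 (0.76). Of 4 mesenchymal markers FN1 rose (0.19) while VIM (-0.15) and ZEB1 (-0.27) fell, and of 2 tested fibroblast markers PDGFRB rose (0.95). The part of these markers' cells or states in the results for the 47 genes was not tested.

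The counts of 12 of the 47 genes share exon positions with another gene counted at 0.5 CPM or more, most widely CCNE2 and TYMS, and for PRIM1 and RFC4 the overlapping genes NACA and EIF4A2 were counted at 478 and 722 CPM. Named pseudogenes of 8 of the 47 genes were present in the table, 15 in all, each at 0.092 CPM or less. How reads of such regions were assigned is not given in the sources used here.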

How the data were processed

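RNA of 6 libraries was sequenced on an Illumina NovaSeq instrument, with poly(A) RNA named as the molecule per the labels. The authors deposited whole-number counts per gene in 1 table and FPKM values in another; GRCh38.p12 and DESeq2 are listed in the submitters' processing notes. No aligner, counter or strand setting is named (not given in the sources used here). Gene coordinates of 58724 of 58735 genes equalled GENCODE release 29.

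Counts were tested with edgeR 4.0.16 in R 4.3.3 (filterByExpr with a minimum count of 10, TMM, quasi-likelihood F-test, Benjamini-Hochberg over 15768 genes, threshold 0.05), with the siRNA group alone and, for the replicate number and the paired comparison, with both terms. Code was tested on simulated data. Same-numbered libraries were taken as pairs because deviations from group means correlated at 0.552, 0.454 and 0.584. The values for different numbers, -0.434 to -0.0893, add no separate evidence, because the 3 deviations of a group sum to 0 for each gene. Same-numbered libraries also share a code in the library names, whose meaning the labels do not state. DESeq2 1.42.0 and limma 3.58.1 (voom, and log2(FPKM + 1) or log2(FPKM + 0.1)) were alternatives. Libraries of a group differed by more than sampling noise (chi-square divided by its degrees of freedom, 23.9 to 41.3).

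The 47 genes, their roles and the comparison lists were chosen with earlier results of these data known. Genes have library values in the text where they passed for the siRNA with or without the block, had the 3 smallest p for the number, or were the most or least abundant; POLA1 was added after its values were seen. Up to 4 genes per comparison list were named, by smallest p among those that passed.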

Additional observations from a re-analysis of the deposited data

How the results depend on the processing

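For siUAP1 against control, 17 of all tested genes differed with the group as the only term, 110 with no filter, 165 in DESeq2, and 2 and 3 on log2(FPKM + 1) and log2(FPKM + 0.1). Leaving out 1 library gave 1 to 3. With the replicate block the count was 2556, with RLE scaling 2539, with library totals 2587 and with DESeq2 1311; leaving out pairs 1, 2 and 3 gave 2204, 1987 and 1195. For the 47 genes, 0 differed with the group alone; with the replicate block 13 did, 13 with RLE scaling, 14 with library totals, 5 with DESeq2, and 8, 17 and 1 without pairs 1, 2 and 3. GINS1 reversed to 0.0154 without siUAP1 library 1, within a range of -0.364 to 0.0154 over libraries left out.

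For the replicate number, 7232 of all tested genes and 42 of the 47 differed. DESeq2's likelihood ratio test gave 4227 and 35, leaving out 1 library 4573 to 6669 and 32 to 41, number 2 against 3 alone 3714 and 8, and number 1 against 2 alone 4124 and 39. RLE scaling, library totals, no filter and voom gave 40 to 42 of the 47. Leaving out libraries and comparing 2 numbers were chosen after seeing the data.

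With 3 libraries a group and 2 per number, precision was limited: the smallest difference that passed with the block was -0.165 (MCM7), and standard errors ran from 0.0459 (MCM3) to 0.281 (E2F2). FPKM carry no counts, and counts of E2F2 were few.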

Other observations

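Further genes of G1/S control, outside the 47, did not share a single direction across replicate numbers. Of 27 further genes of G1/S control tested, both libraries numbered 1 lay above the other 4 for 5, beside 15.1% of all tested genes. They lay below the other 4 for 8, beside 16.2%. Whether either count exceeds these shares by more than chance was not tested. The 3 genes named here were noticed after their values had been seen, so they are given as values without a reading. E2F7, an E2F repressor, stood at 199.8 and 187.5 CPM in control and siUAP1 library 1, and its log2 difference was -0.90 in number 2 (SE 0.0649) and -0.64 in number 3 (SE 0.0644) against number 1. MYC stood at 351 and 335 CPM in the libraries numbered 1 and was lower in the other 4, by log2 differences of -0.75 (SE 0.0558) and -0.51 (SE 0.0555). CDKN2B, the CDK inhibitor named above, stood at 53.3 and 60.4 CPM in the libraries numbered 1, with log2 differences of -0.98 (SE 0.0917) and -1.31 (SE 0.094). For all 3 genes both libraries numbered 1 were the highest of the 6.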
